A study of Mus musculus with 6 samples.

Results

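The genes described here are the nuclear-encoded genes of oxidative phosphorylation, the mitochondrial process that passes electrons from NADH and succinate to oxygen and uses the resulting proton gradient to make ATP. They were taken by gene symbol: every row of the count table whose symbol starts with Nduf, Uqcr, Cox4, Cox5, Cox6, Cox7, Cox8 or Atp5, the Sdha, Sdhb, Sdhc and Sdhd genes, and BC002163, a near copy of Ndufs5. A level of at least 5 CPM (counts scaled to a common library total) in 1 or more libraries, in the authors' normalised values, was also required. Of 24054 gene rows 93 met the rule on names, and 85 of these reached the level. The 8 left out were Cox4i2, Cox6b2, Cox7a1, Cox7b2, Cox8b, Cox8c, Ndufa4l2 and Ndufaf6. The highest level of Ndufaf6, just under the limit, was 3.13 CPM, and those of Ndufaf5 and Atp5s, just above it, were 5.56 and 5.58 CPM. The rule uses names and level alone, but it was written with earlier results of these data known, and BC002163 is in it by name. Cox6a2 reached the level in oxLDL libraries only, Ndufs5 in wild-type libraries only and Atp5s in wild type untreated only, so a difference of Cox6a2 between treatments, of Ndufs5 between genotypes and of Atp5s in either rests in part on the choice. By complex, 37 genes belong to complex I, 6 are complex I assembly factors with Ndufaf names, 4 belong to complex II, 8 to complex III, 13 to complex IV and 15 to complex V, while Atp5s and Atp5sl carry an Atp5 name without being subunits of the enzyme's core. Ndufa4 was counted with complex IV, to which its protein was reassigned from complex I, and so was Cox7a2l, a factor that joins respiratory complexes into supercomplexes.

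RNA came from cultured macrophages grown from the bone marrow of C57BL/6 mice over 7 days with conditioned medium of L929, mouse fibroblasts used as a source of macrophage growth factor. The marrow donors were either wild-type mice or mice described as Kindlin3-integrin mutant, whose libraries are titled KI without further detail of the allele. Cells received 50 µg/ml oxidised low-density lipoprotein (oxLDL) for 24 h, or no treatment. OxLDL is taken up by scavenger receptors and turns plaque macrophages into lipid-laden foam cells. The 4 groups were mutant oxLDL (2 libraries), mutant untreated (2), wild type oxLDL (1) and wild type untreated (1), and the study asked how the transcriptomes of wild-type and mutant macrophages differ under oxidative stress.

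In the respiratory chain, complex I oxidises NADH and complex II oxidises succinate, both handing electrons to coenzyme Q. Complex III passes them on to cytochrome c, and complex IV reduces oxygen. Complexes I, III and IV pump protons, and ATP synthase, complex V, lets them flow back to make ATP. A few subunits of complexes I, III, IV and V are encoded in mitochondrial DNA and were not analysed here. In macrophages the balance between this pathway and glycolysis is known to shift with activation, inflammatory stimuli favouring glycolysis and interleukin-4 favouring respiration.

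The libraries held 11281692 to 24273551 counts, of which the 85 genes took 0.481% to 0.543%. Fermt3, the gene of kindlin-3, measured 146 and 153 CPM in oxLDL-treated mutant cells, against 241 and 249 CPM in untreated mutant cells, and 188 CPM in oxLDL-treated wild-type cells, against 403 CPM in untreated wild-type cells, and without treatment the mutant over wild-type log2 fold change was -0.72 ± 0.11 (adjusted p = 0.0264), where ± gives the standard error (SE), as after all log2 fold changes below. The summed level of 6 macrophage markers was 3750 to 4301 CPM in the oxLDL libraries, against 8408 to 11285 CPM in the untreated ones. Its members went both ways. Emr1, Csf1r, Itgam and Fcgr1 were lower with oxLDL in both genotypes, and Cd68 and Mertk were higher in both. Emr1 averaged 819 CPM in oxLDL-treated mutant cells, against 4422 CPM in untreated mutant cells. In the same order, Csf1r averaged 673 and 1821 CPM, Itgam 316 and 1107 CPM, and Fcgr1 19.9 and 192 CPM. Cd68 averaged 2010 CPM in oxLDL-treated mutant cells, against 1151 CPM in untreated mutant cells. Neutrophil markers summed to 17.9 CPM in wild type untreated and to at most 2.11 CPM elsewhere. Transcripts of 8 pancreatic markers summed to 162 and 129 CPM with oxLDL in the mutant and to 219 CPM in wild type untreated, and to at most 0.0708 CPM in the other 3 libraries. The ribosomal RNA precursor Rn45s measured 1552 to 2479 CPM in the oxLDL libraries, against 1131 to 1313 CPM in the untreated ones. Leaving the pancreatic markers and Rn45s out of the library sizes did not alter the number of oxidative phosphorylation genes called in any comparison. That refit dropped these rows only, so it could not show whether pancreatic RNA added to the counts of the 85 genes. In the mutant the pancreatic transcripts were present in both oxLDL libraries and nearly absent from both untreated ones. There the pancreatic signal and oxLDL cannot be told apart. The labels do not say that the replicates came from separate mice, so the spread behind each p-value is that of these libraries and may be technical, and in bulk RNA fewer cells of a type cannot be told apart from less RNA per cell.

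Sequences are shown where a result turns on them. Ndufs5, a subunit of complex I, and BC002163 are shown because their counts were divided differently in mutant and wild-type cells. In the GENCODE M21 annotation (GRCm38) Ndufs5 is a protein-coding gene at chr4:123712710-123718202 (minus strand) and BC002163 is a processed pseudogene, a reinserted copy of an mRNA, at chr16:42955631-42955949 (plus strand). Over the 319 bases aligned from the start codon of Ndufs5 they differ at 2 positions, T81C and A105G, where the base of Ndufs5 comes first and positions count from the A of its start codon. They are therefore 99.4% identical. Of 245 stretches of 75 bases 146 are the same in both genes, as are 65 of 170 stretches of 150 bases, the read length. The first 150 bases are shown, with the differing bases in capitals.
Ndufs5: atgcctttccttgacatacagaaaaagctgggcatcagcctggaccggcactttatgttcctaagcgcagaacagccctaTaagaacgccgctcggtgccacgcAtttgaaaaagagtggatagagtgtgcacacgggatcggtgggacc
BC002163: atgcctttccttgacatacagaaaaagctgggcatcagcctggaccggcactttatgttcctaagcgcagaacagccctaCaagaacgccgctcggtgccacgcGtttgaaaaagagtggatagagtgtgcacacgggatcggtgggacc

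Promoters are shown for 2 genes that fell and 2 that rose with oxLDL in mutant cells and across genotypes. Each runs from 250 bases before to 50 bases after the annotated start (RefSeq, GRCm38.p6): Cox5a at chr9:57520982-57521281 (plus strand), Ndufc2 at chr7:97399753-97400052 (plus), Ndufaf4 at chr4:24897833-24898132 (plus) and Sdhd at chr9:50603800-50604099 (minus). Capitals mark matches to motifs of factors known to act on respiratory genes.
Cox5a: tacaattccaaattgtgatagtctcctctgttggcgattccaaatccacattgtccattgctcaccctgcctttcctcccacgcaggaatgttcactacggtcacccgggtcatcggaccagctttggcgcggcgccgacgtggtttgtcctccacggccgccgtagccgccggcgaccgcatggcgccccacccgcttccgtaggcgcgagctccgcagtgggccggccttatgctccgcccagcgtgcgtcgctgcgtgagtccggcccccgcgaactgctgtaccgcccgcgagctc
Ndufc2: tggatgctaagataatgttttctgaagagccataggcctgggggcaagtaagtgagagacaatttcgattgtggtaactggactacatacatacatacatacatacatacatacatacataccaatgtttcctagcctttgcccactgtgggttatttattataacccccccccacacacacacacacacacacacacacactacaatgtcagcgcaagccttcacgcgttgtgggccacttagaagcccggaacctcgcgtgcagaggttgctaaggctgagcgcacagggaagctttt
Ndufaf4: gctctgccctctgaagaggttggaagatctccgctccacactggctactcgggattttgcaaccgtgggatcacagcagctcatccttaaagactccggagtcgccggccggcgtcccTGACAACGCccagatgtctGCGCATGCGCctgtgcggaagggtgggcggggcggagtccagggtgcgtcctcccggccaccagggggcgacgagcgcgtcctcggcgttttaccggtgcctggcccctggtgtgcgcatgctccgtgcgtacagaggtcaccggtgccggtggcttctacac
Sdhd: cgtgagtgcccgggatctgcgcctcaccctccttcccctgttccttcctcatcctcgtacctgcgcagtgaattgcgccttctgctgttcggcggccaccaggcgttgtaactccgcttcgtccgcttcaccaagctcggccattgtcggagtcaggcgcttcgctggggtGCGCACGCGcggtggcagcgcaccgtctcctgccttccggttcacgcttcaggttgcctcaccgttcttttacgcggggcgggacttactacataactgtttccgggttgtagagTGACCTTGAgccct

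Promoter windows were found for 69 of the 85 genes, with 74 windows of 300 bases in all. The motif of NRF1 (nuclear respiratory factor, GCGCANGCG), searched on both strands like the others, stood in 23 of the 74 windows (31.1%), against 12.9% of 12132 windows of all genes tested and 6.25% of all 32851 windows. That of YY1 (AAGATGGCG) was in 9.46% of the 74 windows, against 2.99% and 1.40%, and that of the estrogen-related receptors (TCAAGGTCA) in 2.70%, against 0.272% and 0.423%. The motif of GABPA (CCGGAAGT) was in 6.76%, against 7.93% and 3.89%, and the antioxidant response element (TGACNNNGC), which begins with the same TGAC as the estrogen-related receptor motif read on the other strand, in 16.2%, against 14.5% and 12.4%. Of the genes shown, Ndufaf4 and Sdhd hold the NRF1 motif, Ndufaf4 also the antioxidant response element and Sdhd also the estrogen-related receptor motif, whereas the windows of Cox5a and Ndufc2 hold none of these 5. Among the other members, Atp5o, which was lower with oxLDL across genotypes, holds the NRF1 motif and the antioxidant response element, and Ndufaf7 and Ndufb7, which rose in mutant cells, hold none of the 5. Of the other genes that were lower across genotypes, Atp5j2 holds the YY1 motif and Sdhb none. No window was found for Cox6a2, Uqcrq and Atp5sl. Windows were looked up by the gene symbols of the counts only, so a gene listed under a newer name would be missed.

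Most oxidative phosphorylation genes differed little between oxLDL-treated and untreated mutant macrophages, and those that passed the test were scattered over the complexes. Of the 85 genes 6 rose and 2 fell (9.41%), with edgeR's quasi-likelihood test, Benjamini-Hochberg adjustment over all 12689 genes tested and a threshold of 0.05, while 35.6% of all genes tested passed, 16.5% as higher and 19.1% as lower. DESeq2 called 5 of the 85 and 29.2% of all genes. Cox6a2, the heart and skeletal muscle isoform of a complex IV subunit, had by far the largest change, 20.8-fold higher, as a gene that met the level only through its oxLDL libraries. Without Cox6a2 and Atp5s, whose level depended on treatment, 5 of 83 genes rose and 2 fell (8.43%). Uqcrq, a small subunit of complex III, rose 1.82-fold, and the complex I assembly factor genes Ndufaf4 and Ndufaf7 rose 1.61-fold and 1.503-fold. Sdhd, a membrane anchor of complex II, and Ndufb7, an accessory subunit of complex I, rose 1.30-fold and 1.31-fold, while Cox5a and Ndufc2, accessory subunits of complexes IV and I, fell 1.49-fold and 1.46-fold. Fewer genes passed when any 1 mutant library was left out, which leaves 1 library in a group, among the 85 and among all genes alike. In these fits the log2 fold change of Cox6a2 was 4.03 to 4.77 and that of Uqcrq 0.80 to 0.96.

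The changes were also small in size. The absolute log2 fold change had a median of 0.13 over the 85 genes, against 0.40 over all genes tested, and was under 0.5 for 79 of the 85 (92.9%), against 57.8% of all genes. Highly expressed genes are measured more precisely, so the same was computed for 3473 other genes whose mean level lay within the interquartile range of the members, 21.8 to 73.9 CPM, a range taken after the values were seen. Of these, 39.9% passed the test, their median absolute log2 fold change was 0.30 and 68.2% lay under 0.5. The standard error of the log2 fold change had a median of 0.11 over the 85 genes and 0.15 over all genes. These shares describe the 6 libraries and were not tested. Of the estimates 45 were above 0 and 40 below 0, with a median of 0.02, against 0.01 over all genes.

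**Figure D1:**
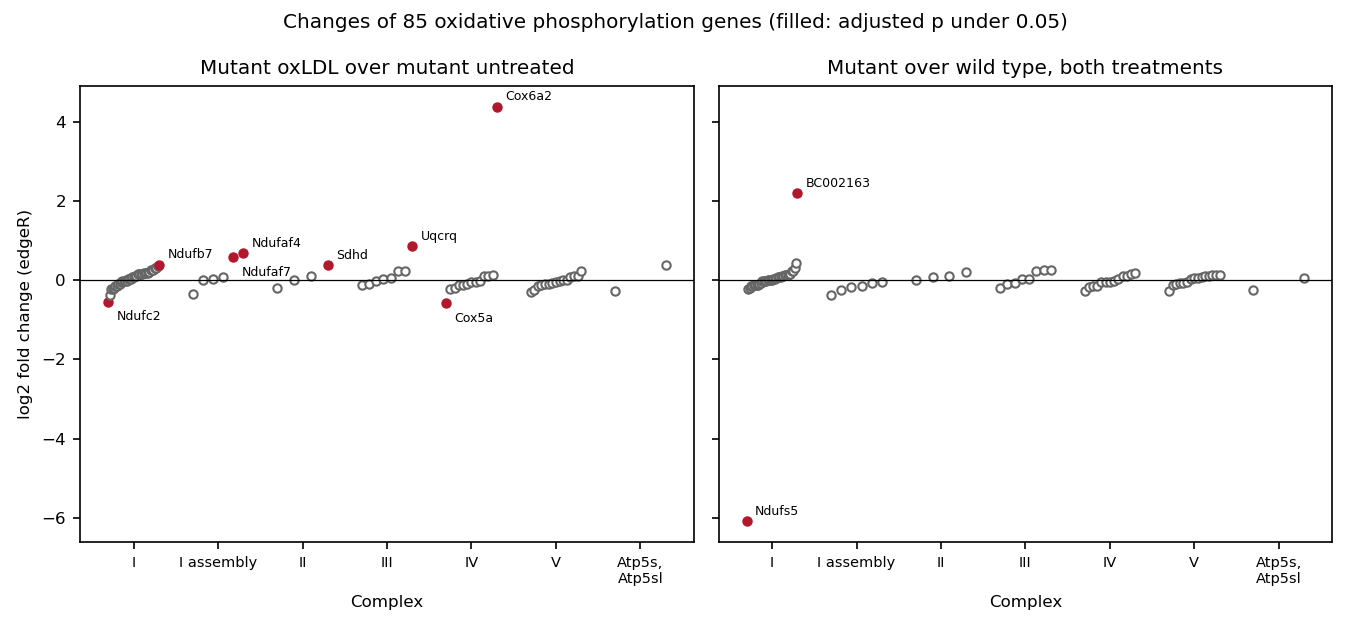
The log2 fold change of each of the 85 genes (y axis, edgeR) is drawn by complex (x axis), for mutant oxLDL over mutant untreated on the left and mutant over wild type across treatments on the right. Filled red points passed an adjusted p of 0.05 and open grey points did not. On the left 8 genes are filled, led by Cox6a2 at 4.38, and on the right Ndufs5 at -6.08 and BC002163 at 2.20 stand alone.

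**Figure D2:**
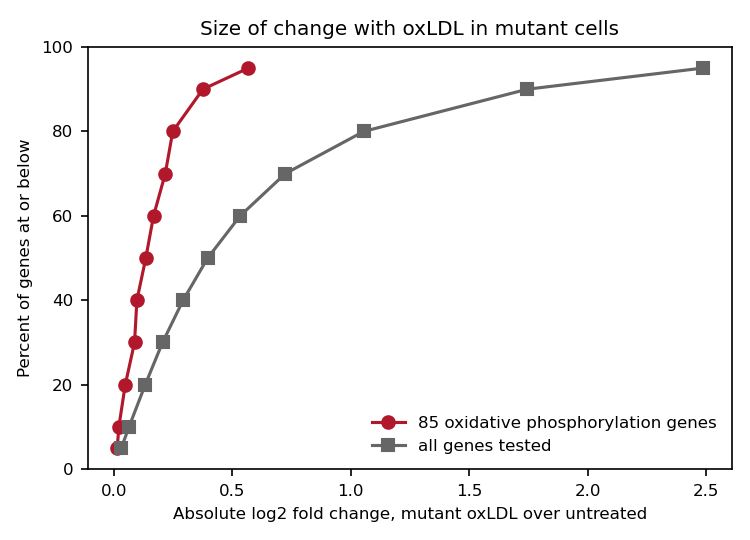
The share of genes (y axis, percent) whose absolute log2 fold change for oxLDL in mutant cells is at or below the value on the x axis, drawn at 11 fixed percentiles for the 85 genes (red circles) and all genes tested (grey squares). The red curve lies left of the grey one, with a median of 0.13 against 0.40.

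Summed by complex, the transcripts stayed within narrow limits. All 85 genes together came to 5145 and 5066 CPM with oxLDL in the mutant, against 5014 and 5226 CPM without it, and to 4875 CPM in wild type oxLDL, against 5191 CPM in wild type untreated. The mutant values overlap, with a log2 ratio of oxLDL over untreated of -0.0038 and a within-pair SD of 0.03. For the 5 complexes the log2 ratio in mutant cells was 0.04 (complex I), 0.06 (II), 0.08 (III), -0.04 (IV) and -0.06 (V), with within-pair SDs of 0.04, 0.10, 0.06, 0.05 and 0.03. Complexes II and IV overlapped between the mutant groups. Complex I was higher in both oxLDL libraries, at 1260.2 and 1256.1 CPM, against 1185 and 1256.0 CPM untreated, and so was complex III, at 473 and 458 CPM, against 424 and 455 CPM untreated, but with DESeq2's size factors the groups overlapped in both. Complex V was lower in both oxLDL libraries, at 1759 and 1714 CPM, against 1776 and 1849 CPM untreated, though in the authors' normalised values the groups overlapped. The 6 assembly factors came to 56.8 and 57.2 CPM in mutant oxLDL, against 45.5 and 47.6 CPM in mutant untreated, a log2 ratio of 0.29 with a within-pair SD of 0.03. Ndufaf4 and Ndufaf7 carried this difference, with 30.0 and 29.6 CPM together in mutant oxLDL, against 19.2 and 18.9 CPM in mutant untreated, while the other 4 overlapped, at 26.8 and 27.5 CPM in mutant oxLDL, against 26.3 and 28.7 CPM in mutant untreated. The 6 were also higher in wild type oxLDL, at 66.2 CPM, against 52.3 CPM in wild type untreated, where no replicate check exists. These sums were described and not tested.

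**Figure D3:**
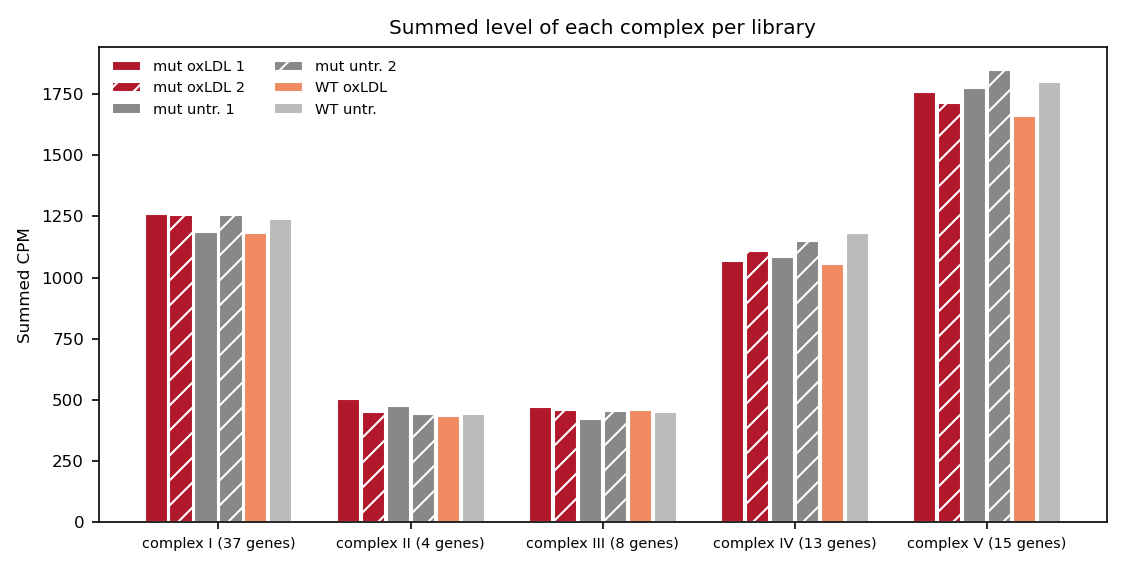
Summed CPM (y axis) of the genes of each complex (x axis) in the 6 libraries, 1 bar per library, mutant oxLDL in red, mutant untreated in dark grey, wild type oxLDL in orange and wild type untreated in light grey, with replicate 2 hatched. Within each complex the 6 bars differ little, complex V ranging from 1660 CPM in wild type oxLDL to 1849 CPM in a mutant untreated library.

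In complex I, which takes electrons from NADH, 1 of 37 genes rose (Ndufb7) and 1 fell (Ndufc2) in mutant cells. Ndufv1, the flavin subunit that binds NADH, measured 32.4 and 32.7 CPM in oxLDL-treated mutant cells, against 30.0 and 31.2 CPM in untreated mutant cells, and 24.8 CPM in oxLDL-treated wild-type cells, against 22.2 CPM in untreated wild-type cells. It was higher in every mutant library than in either wild-type one, a difference given below that did not pass by edgeR's test. Its log2 fold change with oxLDL in mutant cells was only 0.09 ± 0.10 (adjusted p = 0.530). Ndufv2, an iron-sulfur subunit beside it, measured 59.7 and 60.8 CPM in oxLDL-treated mutant cells, against 65.6 and 75.9 CPM in untreated mutant cells, and 60.02 CPM in oxLDL-treated wild-type cells, against 69.6 CPM in untreated wild-type cells, a log2 fold change of -0.23 ± 0.11 (adjusted p = 0.147) that did not pass. Ndufs1, the largest iron-sulfur subunit, measured 89.9 and 79.01 CPM in oxLDL-treated mutant cells, against 70.5 and 71.7 CPM in untreated mutant cells, and 69.2 CPM in oxLDL-treated wild-type cells, against 62.96 CPM in untreated wild-type cells. Both mutant oxLDL libraries were above both untreated ones, yet the log2 fold change of 0.25 ± 0.10 (adjusted p = 0.115) did not pass either. These 3 genes thus stayed outside the threshold.

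Ndufc2, an accessory subunit of the membrane arm, measured 31.8 and 29.2 CPM in oxLDL-treated mutant cells, against 46.4 and 42.4 CPM in untreated mutant cells, and 32.1 CPM in oxLDL-treated wild-type cells, against 55.5 CPM in untreated wild-type cells. All 3 oxLDL libraries lay below all 3 untreated ones. Its log2 fold change in mutant cells was -0.54 ± 0.11 (adjusted p = 0.0125), and without mutant untreated replicate 1 the call ended (adjusted p = 0.0674). Ndufb7, another accessory subunit, measured 27.98 and 26.1 CPM in oxLDL-treated mutant cells, against 21.0 and 20.2 CPM in untreated mutant cells, and 19.8 CPM in oxLDL-treated wild-type cells, against 26.96 CPM in untreated wild-type cells. It was higher with oxLDL in both mutant libraries, by 0.39 ± 0.11 (adjusted p = 0.0432) on the log2 scale, and lower with oxLDL in the single wild-type pair. It was thus higher in the libraries holding pancreatic marker transcripts (162 and 129 CPM in mutant oxLDL, 219 CPM in wild type untreated). Whether Ndufb7 follows that signal or oxLDL was not tested. The difference between the genotypes in its response was a log2 value of 0.83 ± 0.20 (adjusted p = 0.231), which did not pass. The call for Ndufb7 in mutant cells ended when any 1 mutant library was left out (adjusted p between 0.0618 and 0.186). Ndufab1, the mitochondrial acyl carrier protein, and Ndufa6 had the next largest positive values, 0.37 ± 0.15 (adjusted p = 0.113) and 0.31 ± 0.11 (adjusted p = 0.0737), and neither passed.

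Among the complex I assembly factors, which help to build the complex and are not part of the finished enzyme, Ndufaf4 and Ndufaf7 rose and 4 did not pass. Ndufaf4 measured 18.05 and 16.9 CPM in oxLDL-treated mutant cells, against 10.2 and 11.5 CPM in untreated mutant cells, and 19.6 CPM in oxLDL-treated wild-type cells, against 13.8 CPM in untreated wild-type cells. Every oxLDL library was above every untreated library, and the log2 fold change in mutant cells was 0.69 ± 0.14 (adjusted p = 0.0141). Ndufaf7, a mitochondrial methyltransferase, measured 11.96 and 12.7 CPM in oxLDL-treated mutant cells, against 9.0 and 7.43 CPM in untreated mutant cells, and 15.98 CPM in oxLDL-treated wild-type cells, against 10.8 CPM in untreated wild-type cells. Here too the groups did not overlap, with a log2 fold change of 0.59 ± 0.17 (adjusted p = 0.0396). Ndufaf5, with a log2 fold change of -0.34 ± 0.30 (adjusted p = 0.415), had the lowest value of the 6 and did not pass. Leaving out mutant untreated replicate 1 or 2 ended the call for Ndufaf4 (adjusted p = 0.0746 and 0.0516), and that for Ndufaf7 ended without any 1 mutant library (0.0576 to 0.196).

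Complex II, which also serves the citric acid cycle as succinate dehydrogenase, has 4 subunits, of which Sdhd rose. Sdhd, which with Sdhc anchors the enzyme in the membrane, measured 72.8 and 77.4 CPM in oxLDL-treated mutant cells, against 59.03 and 56.3 CPM in untreated mutant cells, and 70.6 CPM in oxLDL-treated wild-type cells, against 60.1 CPM in untreated wild-type cells. The 3 oxLDL libraries were above the 3 untreated ones, and the log2 fold change in mutant cells was 0.38 ± 0.09 (adjusted p = 0.0256). Without mutant oxLDL replicate 2 or either mutant untreated library this call ended (adjusted p = 0.0985, 0.0642 and 0.111). Sdha, the flavoprotein that oxidises succinate, measured 268 and 214 CPM in oxLDL-treated mutant cells, against 236 and 216 CPM in untreated mutant cells, and 220.4 CPM in oxLDL-treated wild-type cells, against 214 CPM in untreated wild-type cells. The 2 mutant oxLDL libraries lay on either side of the untreated values, and the log2 fold change was 0.09 ± 0.13 (adjusted p = 0.630). Sdhb, the iron-sulfur subunit, measured 80.8 and 78.6 CPM in oxLDL-treated mutant cells, against 93.9 and 89.2 CPM in untreated mutant cells, and 64.5 CPM in oxLDL-treated wild-type cells, against 86.3 CPM in untreated wild-type cells. It was lower in all 3 oxLDL libraries, a log2 fold change of -0.20 ± 0.09 (adjusted p = 0.138) in mutant cells that did not pass. Sdhc measured 84.4 and 81.1 CPM in oxLDL-treated mutant cells, against 85.2 and 81.1 CPM in untreated mutant cells, and 77.3 CPM in oxLDL-treated wild-type cells, against 80.5 CPM in untreated wild-type cells, with a log2 fold change of -0.01 ± 0.09 (adjusted p = 0.961). The anchor subunits Sdhc and Sdhd thus did not share the same result, although the difference between them was not tested.

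In complex III, Uqcrq was the 1 of 8 genes that passed. It measured 36.7 and 38.6 CPM in oxLDL-treated mutant cells, against 19.4 and 21.9 CPM in untreated mutant cells, and 32.5 CPM in oxLDL-treated wild-type cells, against 22.97 CPM in untreated wild-type cells. The oxLDL libraries were all above the untreated ones, with a log2 fold change of 0.87 ± 0.12 (adjusted p = 0.00336) in mutant cells. Of the core subunits, Uqcrc1 measured 85.9 and 83.8 CPM in oxLDL-treated mutant cells, against 82.1 and 85.3 CPM in untreated mutant cells, and 82.3 CPM in oxLDL-treated wild-type cells, against 82.4 CPM in untreated wild-type cells, and its log2 fold change was 0.02 ± 0.09 (adjusted p = 0.888). Uqcrc2 measured 87.6 and 77.6 CPM in oxLDL-treated mutant cells, against 68.1 and 73.5 CPM in untreated mutant cells, and 81.9 CPM in oxLDL-treated wild-type cells, against 81.2 CPM in untreated wild-type cells. It was higher with oxLDL in both mutant libraries and level in wild type, a log2 fold change of 0.22 ± 0.11 (adjusted p = 0.159) that did not pass. Uqcrfs1, the Rieske iron-sulfur protein that carries electrons towards cytochrome c, measured 41.7 and 40.96 CPM in oxLDL-treated mutant cells, against 33.7 and 37.1 CPM in untreated mutant cells, and 33.3 CPM in oxLDL-treated wild-type cells, against 30.8 CPM in untreated wild-type cells. Its log2 fold change of 0.22 ± 0.10 (adjusted p = 0.152) did not pass. The lowest values in this complex were those of Uqcr11, -0.13 ± 0.12 (adjusted p = 0.427), and Uqcrh, -0.10 ± 0.09 (adjusted p = 0.430).

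Complex IV, cytochrome c oxidase, held the largest increase and the largest decrease of the 85 genes. Cox5a, a subunit on the matrix side of the enzyme, measured 50.1 and 53.1 CPM in oxLDL-treated mutant cells, against 69.97 and 83.5 CPM in untreated mutant cells, and 46.7 CPM in oxLDL-treated wild-type cells, against 102 CPM in untreated wild-type cells. No oxLDL library reached any untreated one, and the log2 fold change in mutant cells was -0.57 ± 0.12 (adjusted p = 0.0139). Leaving out the higher of the mutant untreated libraries, replicate 2, ended the call (adjusted p = 0.0629). Cox4i1, the subunit at which ATP acts on the enzyme, measured 210.5 and 208 CPM in oxLDL-treated mutant cells, against 195 and 195 CPM in untreated mutant cells, and 177 CPM in oxLDL-treated wild-type cells, against 183 CPM in untreated wild-type cells. It did not pass, with a log2 fold change of 0.10 ± 0.08 (adjusted p = 0.394). Cox6b1 had the next lowest value after Cox5a, -0.23 ± 0.10 (adjusted p = 0.125), and Ndufa4 measured -0.19 ± 0.13 (adjusted p = 0.285). Cox7a2l, of which 10.4% of 75-base stretches are shared with another gene, had a value of 0.12 ± 0.09 (adjusted p = 0.326).

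Several subunits of complex IV exist in a form found in most tissues and a form of heart and skeletal muscle. Cox6a2, the muscle form, measured 9.21 and 14.1 CPM in oxLDL-treated mutant cells, against 0.706 and 0.425 CPM in untreated mutant cells, and 8.05 CPM in oxLDL-treated wild-type cells, against 1.53 CPM in untreated wild-type cells, from 227, 284, 8, 6, 126 and 30 counts in the same order. The oxLDL libraries were all above the untreated ones, and the log2 fold change in mutant cells was 4.38 ± 0.38 (adjusted p = 0.000916). This call held under each of the 10 alternative settings tried, with values of 4.03 to 4.77. None of these settings redid the choice of genes, and Cox6a2 met the level through its oxLDL libraries only. Cox6a1, the widely expressed form, measured 80.4 and 79.7 CPM in oxLDL-treated mutant cells, against 79.1 and 84.6 CPM in untreated mutant cells, and 75.99 CPM in oxLDL-treated wild-type cells, against 87.7 CPM in untreated wild-type cells, and its log2 fold change was -0.03 ± 0.09 (adjusted p = 0.807). The contrast between the 2 forms in size of change, 20.8-fold against a value near 0, was not itself tested. Markers of cardiac and skeletal muscle (Myh6, Myh7, Tnnt2, Actn2, Ckm and Acta1) summed to 0 and 0.347 CPM with oxLDL in the mutant, against 0.265 and 0.495 CPM without it, 0.0639 CPM in wild type oxLDL and 0.256 CPM in wild type untreated, and Myh7 had no count in any. An exon of Cox6a2 overlaps Itgad, an integrin alpha subunit gene on the opposite strand, and although the library kit marks strand, the strand setting of the counting is not given. Itgad measured 1.22 and 1.29 CPM in oxLDL-treated mutant cells, against 1.32 and 1.13 CPM in untreated mutant cells, and 0 CPM in oxLDL-treated wild-type cells, against 0 CPM in untreated wild-type cells, so its mutant groups overlapped and it had no count in wild type. The other muscle or tissue-restricted forms were near 0: Cox7a1 had 15 and 1 counts in mutant oxLDL, 17 and 22 in mutant untreated, 5 in wild type oxLDL and 8 in wild type untreated, Cox4i2 and Cox8b had at most 2 and 1 counts in a library, and Cox7b2, Cox8c and Ndufa4l2 had none. Among their widely expressed partners, Cox7a2 and Cox8a had log2 fold changes of -0.14 ± 0.10 (adjusted p = 0.342) and 0.10 ± 0.10 (adjusted p = 0.473). Cox6b2, the testis form paired with Cox6b1, had 0 to 13 counts in a library.

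**Figure D4:**
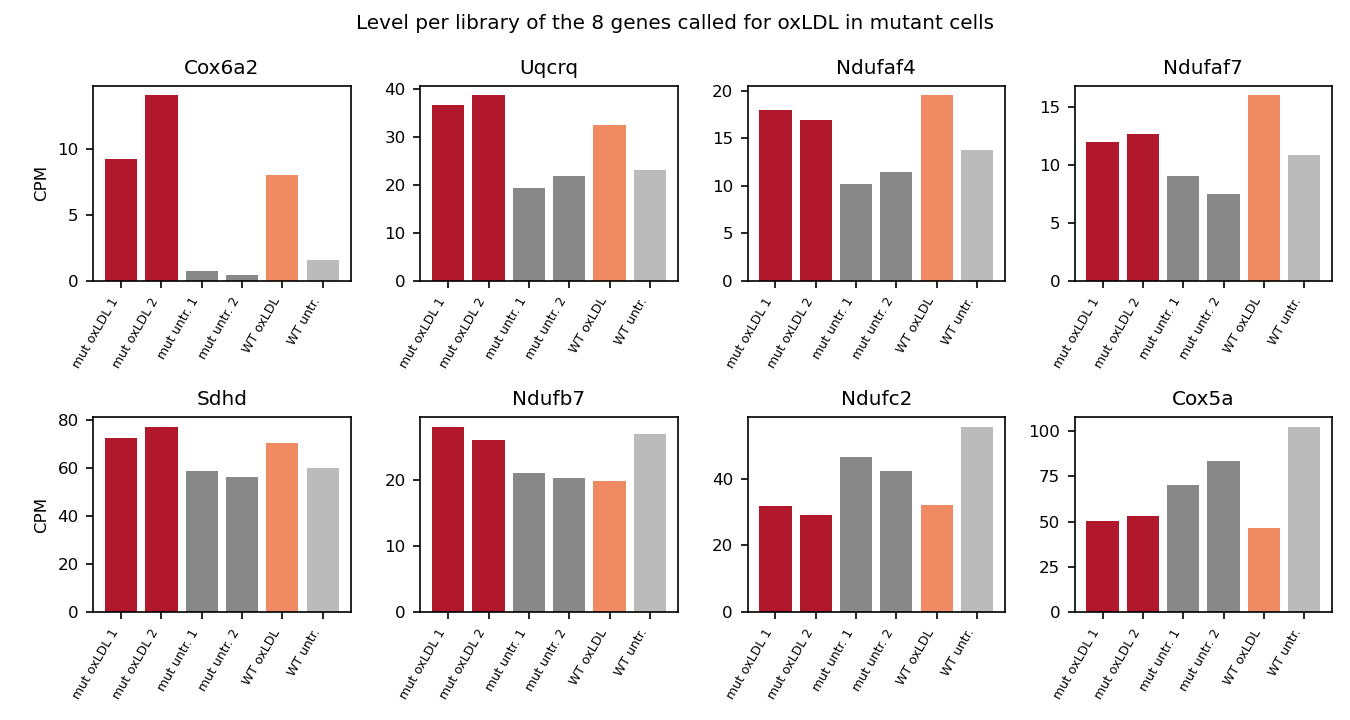
Level (y axis, CPM from 0) in each of the 6 libraries for the 8 genes that passed for oxLDL in mutant cells, 1 bar per library, mutant oxLDL in red, mutant untreated in dark grey, wild type oxLDL in orange and wild type untreated in light grey. Cox6a2, Uqcrq, Ndufaf4, Ndufaf7 and Sdhd are higher and Ndufc2 and Cox5a lower in all 3 oxLDL libraries, whereas Ndufb7 is lower with oxLDL in wild type, at 19.8 CPM against 27.0 CPM.

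None of the 15 genes of complex V passed in mutant cells by edgeR's test, while 1 had an unadjusted p under 0.05 and DESeq2 called 0. Atp5a1 and Atp5b encode the alpha and beta subunits, which together form the catalytic head of ATP synthase. Atp5a1 measured 403 and 382 CPM in oxLDL-treated mutant cells, against 406 and 427 CPM in untreated mutant cells, and 368 CPM in oxLDL-treated wild-type cells, against 370.1 CPM in untreated wild-type cells, with a log2 fold change of -0.09 ± 0.10 (adjusted p = 0.528). Atp5b measured 396 and 374 CPM in oxLDL-treated mutant cells, against 395 and 421 CPM in untreated mutant cells, and 372 CPM in oxLDL-treated wild-type cells, against 399 CPM in untreated wild-type cells, with a log2 fold change of -0.08 ± 0.10 (adjusted p = 0.550). Both were flat to within about the spread of the pairs. Atp5c1, the gamma subunit of the rotating shaft, measured 156 and 151 CPM in oxLDL-treated mutant cells, against 158 and 150.2 CPM in untreated mutant cells, and 153 CPM in oxLDL-treated wild-type cells, against 163 CPM in untreated wild-type cells, a log2 fold change of -0.0035 ± 0.09 (adjusted p = 0.980). Atp5o, the subunit that ties the head to the stalk and confers sensitivity to oligomycin, measured 68.7 and 67.1 CPM in oxLDL-treated mutant cells, against 79.6 and 87.7 CPM in untreated mutant cells, and 61.7 CPM in oxLDL-treated wild-type cells, against 78.4 CPM in untreated wild-type cells. The oxLDL libraries all lay below the untreated ones, with a log2 fold change of -0.30 ± 0.10 (adjusted p = 0.0571) in mutant cells, just outside the threshold. Of its 75-base stretches 12.8% are shared with Donson, which it overlaps on the same strand, and another gene model, so its counts are uncertain. The 3 genes of the rotor ring subunit c, Atp5g1, Atp5g2 and Atp5g3, encode the same mature protein and had log2 fold changes of 0.08 ± 0.14 (adjusted p = 0.675), -0.09 ± 0.10 (adjusted p = 0.513) and -0.06 ± 0.12 (adjusted p = 0.719), with 35.8% of Atp5g2 stretches shared with other gene models. Atp5j2 and Atp5f1 had the next lowest values after Atp5o, -0.25 ± 0.11 (adjusted p = 0.138) and -0.15 ± 0.09 (adjusted p = 0.257), and Atp5h the highest, 0.22 ± 0.10 (adjusted p = 0.123). Of the remaining pair, Atp5s differed by 0.38 ± 0.22 (adjusted p = 0.238) and Atp5sl, listed as Dmac2 in newer annotation and named for complex I assembly, by -0.28 ± 0.13 (adjusted p = 0.160).

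Taking both genotypes together, with genotype as a term, 3 oxLDL libraries were set against 3 untreated ones, so that this comparison shares its mutant libraries with the first. Of the 85 genes 5 were higher and 6 lower with oxLDL (12.9%), while 40.5% of all genes tested passed, 19.1% as higher and 21.4% as lower. Higher were Cox6a2, by 3.52 ± 0.47 (adjusted p = 0.00185), Uqcrq, by 0.74 ± 0.12 (adjusted p = 0.00332), Ndufaf4, by 0.62 ± 0.11 (adjusted p = 0.00594), Ndufaf7, by 0.58 ± 0.13 (adjusted p = 0.0124), and Sdhd, by 0.33 ± 0.08 (adjusted p = 0.0203), on the log2 scale. Lower were Cox5a, at -0.76 ± 0.14 (adjusted p = 0.00664), and Ndufc2, at -0.63 ± 0.10 (adjusted p = 0.00374) on that scale. The remaining genes that passed as lower did so by smaller amounts: Atp5sl at -0.37 ± 0.12 (adjusted p = 0.0440), the complex V subunit genes Atp5j2 at -0.35 ± 0.11 (adjusted p = 0.0411) and Atp5o at -0.32 ± 0.08 (adjusted p = 0.0213), and Sdhb at -0.27 ± 0.09 (adjusted p = 0.0430). Atp5j2 measured 38.2 and 33.7 CPM in oxLDL-treated mutant cells, against 41.4 and 43.9 CPM in untreated mutant cells, and 35.4 CPM in oxLDL-treated wild-type cells, against 51.9 CPM in untreated wild-type cells, and Atp5sl 17.1 and 19.6 CPM in oxLDL-treated mutant cells, against 23.2 and 21.3 CPM in untreated mutant cells, and 16.04 CPM in oxLDL-treated wild-type cells, against 23.4 CPM in untreated wild-type cells. In both the largest gap between treatments was that of the wild-type pair. Ndufb7 did not pass here, with a log2 fold change of 0.11 ± 0.18 (adjusted p = 0.657). Without Cox6a2 and Atp5s, whose level depended on treatment, 4 of 83 genes were higher and 6 lower (12%). Without regard to the test, 11 genes were higher in every oxLDL library than in any untreated library and 13 lower in every one, 28.2% of the 85, against 47.8% of all genes tested. With 1 library left out at a time, 5 to 8 genes were called, the fewest without mutant untreated replicate 2. Over all genes the same fits called 3480 to 4529, against 5134 with every library, again the fewest without mutant untreated replicate 2. The calls for Atp5j2, Atp5o, Atp5sl, Sdhb and Sdhd each ended without 4 or more of the 6 libraries in turn, that for Ndufaf7 ended only when mutant untreated replicate 2 was left out (adjusted p = 0.0520), and those for Cox5a, Cox6a2, Ndufaf4, Ndufc2 and Uqcrq held whichever library was left out.

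In wild-type cells alone oxLDL was measured in 1 library against 1, with no replicate check. With a prior count of 2, Cox6a2 was higher by a log2 value of 2.31 and Cox5a lower by a log2 fold change of -1.13, and these were the only 2 of the 85 genes past 2-fold (2.35%), against 19.6% of the 9840 genes at 5 CPM or more, 7.92% higher and 11.7% lower. Ndufc2, at -0.79, and Ndufs8, an iron-sulfur subunit of complex I, at -0.77, followed. Ndufs8 measured 21.01 and 25.7 CPM in oxLDL-treated mutant cells, against 22.9 and 30.5 CPM in untreated mutant cells, and 19.8 CPM in oxLDL-treated wild-type cells, against 33.8 CPM in untreated wild-type cells, so its mutant libraries did not separate by treatment. Of the 85 values 77 lay under 0.5 in size. Above 0 were 33 and below 0 were 52, with a median of -0.04, against -0.0042 over the 9840 genes. Cox6a2, as stated above, met the level through its oxLDL libraries only. On the assumption that single wild-type libraries have the spread of the mutant pairs, Cox5a, Cox6a2 and Ndufc2 passed in wild type (adjusted p = 0.00704, 0.0149 and 0.0165), with 23.2% of all genes passing by the same rule.

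Between genotypes, 2 of the 85 genes passed across treatments, Ndufs5 and its near copy BC002163, while 4.05% of all genes tested passed, 2.54% as higher and 1.51% as lower in the mutant. DESeq2 called Ndufv1 besides these 2, with 11.8% of all genes passing. The same 2 genes were called among untreated cells, where 7.06% of all genes passed (4.24% higher, 2.82% lower), and among oxLDL-treated cells, where 0.481% did (0.299% higher, 0.181% lower). In these 2 comparisons DESeq2 called BC002163 alone, with 10.3% and 3.1% of all genes passing. Ndufs5, an accessory subunit of complex I, measured 0.446 and 0 CPM in oxLDL-treated mutant cells, against 0.441 and 0.212 CPM in untreated mutant cells, and 18.02 CPM in oxLDL-treated wild-type cells, against 19.9 CPM in untreated wild-type cells. BC002163 measured 25.96 and 24.5 CPM in oxLDL-treated mutant cells, against 24.4 and 26.9 CPM in untreated mutant cells, and 6.01 CPM in oxLDL-treated wild-type cells, against 5.11 CPM in untreated wild-type cells. Ndufs5 was lower and BC002163 higher in the mutant, with no overlap between the 4 mutant and the 2 wild-type libraries for either. Ndufs5 met the level through its wild-type libraries only. Without Ndufs5 and Atp5s, whose level depended on genotype, 1 of 83 genes passed in each genotype comparison (1.2%), BC002163. BC002163 entered the rule by name, and its sum with Ndufs5, given below, passed in none of these comparisons. Apart from this pair, none of the 85 genes passed between genotypes by edgeR's test. The log2 fold change across treatments, mutant over wild type, was -6.08 ± 0.53 (adjusted p = 0.00986) for Ndufs5 and 2.20 ± 0.13 (adjusted p = 0.00543) for BC002163. Leaving out mutant untreated replicate 2 ended the call for Ndufs5 across treatments (adjusted p = 0.0874). In untreated cells it ended without either mutant untreated library (0.0909 and 0.0692), and in oxLDL-treated cells both calls did (0.101 and 0.0898 for Ndufs5, 0.0653 and 0.0603 for BC002163).

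BC002163 shares 59.6% of its 245 stretches of 75 bases with Ndufs5, whose longer transcripts share 15.7% of their 928 with BC002163, so the sum of their counts was tested as 1 gene. The sum measured 26.4 and 24.5 CPM with oxLDL and 24.9 and 27.1 CPM without it in the mutant, against 24.03 CPM in wild type oxLDL and 25.1 CPM in wild type untreated. Its log2 fold change between genotypes was 0.07 ± 0.10 (adjusted p = 0.711) across treatments, 0.05 ± 0.14 (adjusted p = 0.845) in untreated cells and 0.08 ± 0.14 (adjusted p = 0.829) with oxLDL. With oxLDL in mutant cells the sum differed by -0.03 ± 0.12 (adjusted p = 0.856). The libraries thus differed in how the counts were divided and not detectably in their total. BC002163 took 98.3% (exact Clopper-Pearson 95% interval 97.0 to 99.2%) of 651 counts in mutant oxLDL replicate 1 and all of 494 counts in replicate 2, where the exact interval of BC002163 was 99.3 to 100% and a floor of 3 counts allows Ndufs5 a share of up to 0.607%. In the mutant untreated libraries it took 98.2% (95.9 to 99.4%) of 282 counts and 99.2% (97.7 to 99.8%) of 383 counts. It took 25% (20.7 to 29.7%) of 376 counts in wild type oxLDL and 20.4% (16.9 to 24.3%) of 490 counts in wild type untreated. These intervals cover counting error only. The division rests on reads that cover the positions T81C and A105G shown above or lie outside the aligned stretch, and on how RSEM assigned the rest, and the reads themselves were not analysed here. For that reason the values of Ndufs5 and BC002163 taken singly are uncertain.

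**Figure D5:**
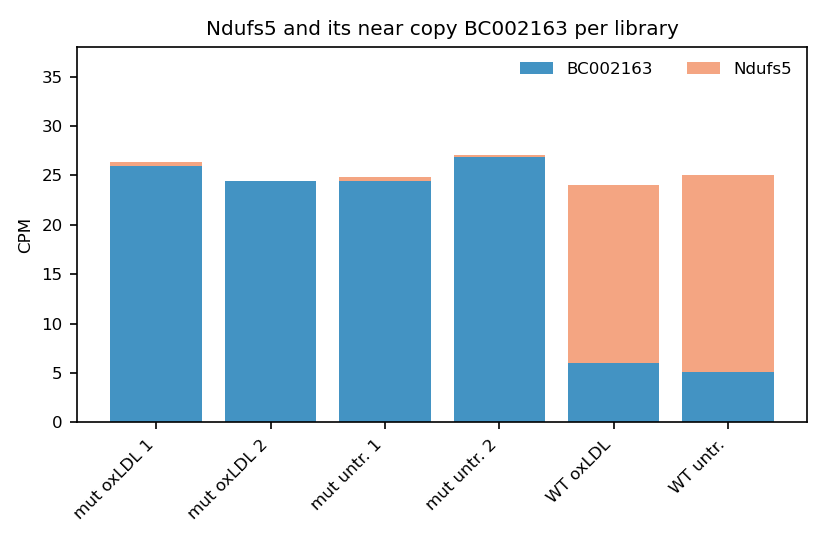
CPM (y axis) of BC002163 (blue) and Ndufs5 (orange), stacked, in each of the 6 libraries (x axis), the mutant libraries on the left. The stacks are of about equal height, 24.0 to 27.1 CPM, while the orange share is close to 0 in the 4 mutant libraries and makes up most of the stack in both wild-type libraries.

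Apart from these, 1 gene differed by 2-fold or more between genotypes in untreated cells, Cox6a2. Together they made 3.53% of the 85, against 15.5% of all genes tested. The log2 fold change of Cox6a2, -1.46 ± 0.52 (adjusted p = 0.139), did not pass, though it did without the low-count filter (adjusted p = 0.0249). Without that filter 2435 of 17143 genes passed, against 896 of 12689 with it. Across treatments the median absolute log2 fold change between mutant and wild type was 0.11 over the 85 genes and 0.21 over all genes tested. Under 0.5 in size lay 83 of the 85 (97.6%), against 76.9% of all genes. All 6 assembly factors had values below 0, from -0.39 to -0.04, and all 4 complex II subunits values above 0, from 0.01 to 0.19, with none of them passing by edgeR's test. At an unadjusted p under 0.05 there was 1 of these 6 and 0 of these 4, and DESeq2 called 0 in each. Ndufv1 came closest to the threshold, with a log2 fold change of 0.43 ± 0.09 (adjusted p = 0.0543), its 4 mutant libraries all above the 2 wild-type ones, and it passed with DESeq2 (adjusted p = 0.0127), without a filter on low counts (0.0483) and without scaling beyond the library total (0.0459). For Cox7a2l the difference was -0.27 ± 0.09 (adjusted p = 0.141), with all 4 mutant libraries below the 2 wild-type ones.

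The response to oxLDL was compared between genotypes by an interaction term, the log2 change in the mutant minus that in wild type. None of the 85 genes passed by edgeR's test, while 0.489% of all genes tested did. At an unadjusted p under 0.05 there were 3 genes and DESeq2 called 0, with 1.74% of all genes passing. The 3 were Ndufb7, given above, Cox6a2, with a difference of 1.99 ± 0.62 (adjusted p = 0.338), and Cox5a, with 0.56 ± 0.20 (adjusted p = 0.417). Cox6a2 passed for the interaction without the low-count filter (adjusted p = 0.0351), where 546 of 17143 genes passed, against 62 of 12689 with it. Cox6a2 met the level through its oxLDL libraries only. With 1 wild-type library per treatment the standard error of this difference had a median of 0.19 over the 85 genes, against 0.11 for oxLDL in mutant cells. Of the 85 differences 63 were above 0 and 22 below 0, with a median of 0.09, against 0.03 over all genes tested. Without scaling beyond the library total these medians were -0.01 and -0.06. These shares were not tested.

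Other genes that serve the same pathway were set beside the subunits as lists, to be read against the 16.5% of all genes tested that rose and the 19.1% that fell with oxLDL in mutant cells. Of 17 citric acid cycle and pyruvate dehydrogenase genes 3 (17.6%, against 35.6% of all genes called in either direction) rose with oxLDL in mutant cells and none fell: Dlat, the acetyltransferase of pyruvate dehydrogenase, by 0.62 ± 0.09 (adjusted p = 0.00512), its E1 subunit gene Pdhb by 0.44 ± 0.09 (adjusted p = 0.0152) and Ogdh, of oxoglutarate dehydrogenase, by 0.33 ± 0.10 (adjusted p = 0.0448) on the log2 scale. Dlat measured 62.3 and 63.4 CPM in oxLDL-treated mutant cells, against 41.9 and 39.98 CPM in untreated mutant cells, and 56.7 CPM in oxLDL-treated wild-type cells, against 35.9 CPM in untreated wild-type cells, with no overlap between treatments. Of 12 coenzyme Q genes Coq10a, whose product binds coenzyme Q, rose, by 1.28 ± 0.14 (adjusted p = 0.00190), and Adck3, a kinase-like protein of coenzyme Q synthesis, fell, with a log2 fold change of -1.79 ± 0.16 (adjusted p = 0.00104). Adck3 measured 5.03 and 4.95 CPM in oxLDL-treated mutant cells, against 16.1 and 18.4 CPM in untreated mutant cells, and 2.43 CPM in oxLDL-treated wild-type cells, against 14.7 CPM in untreated wild-type cells.

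Of 25 complex IV assembly genes 3 rose and none fell (12% called, against 35.6% of all genes): Sco2, which delivers copper, by 0.99 ± 0.26 (adjusted p = 0.0308), Lrpprc, which stabilises mitochondrial mRNAs, by 0.64 ± 0.09 (adjusted p = 0.00383), and Higd2a by 0.56 ± 0.15 (adjusted p = 0.0308). Lrpprc measured 114 and 118 CPM in oxLDL-treated mutant cells, against 76.3 and 72.4 CPM in untreated mutant cells, and 108 CPM in oxLDL-treated wild-type cells, against 64.5 CPM in untreated wild-type cells. Of 3 complex II assembly genes Sdhaf1, which helps to place iron-sulfur clusters in Sdhb, rose by 0.98 ± 0.22 (adjusted p = 0.0183). It measured 6.002 and 6.34 CPM in oxLDL-treated mutant cells, against 3.0 and 3.26 CPM in untreated mutant cells, and 3.58 CPM in oxLDL-treated wild-type cells, against 3.48 CPM in untreated wild-type cells, so the wild-type libraries were level. Of 8 complex I assembly genes outside the Nduf names 1 fell, Foxred1, with -0.51 ± 0.14 (adjusted p = 0.0322), and of 7 other genes of complex III and cytochrome c 1 fell, Cycs, which encodes cytochrome c itself, with -0.36 ± 0.10 (adjusted p = 0.0362). The 6 complex V assembly and inhibitor genes had values from -0.08 to 0.41, and the highest, that of the assembly factor gene Atpaf1, did not pass, at 0.41 ± 0.16 (adjusted p = 0.101).

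Of 12 genes of mitochondrial antioxidants, uncoupling, the adenine nucleotide carriers and the outer membrane channels Vdac1, Vdac2 and Vdac3, 3 fell and none rose (25% called, against 35.6% of all genes): Sod2, the matrix superoxide dismutase, with -1.44 ± 0.18 (adjusted p = 0.00275), Ucp2, an uncoupling protein abundant in macrophages, with -0.51 ± 0.11 (adjusted p = 0.0177), and the ATP/ADP carrier Slc25a5 with -0.34 ± 0.10 (adjusted p = 0.0378). Ucp2 measured 489 and 541 CPM in oxLDL-treated mutant cells, against 711 and 754 CPM in untreated mutant cells, and 376 CPM in oxLDL-treated wild-type cells, against 875 CPM in untreated wild-type cells, every oxLDL library below every untreated one. Sod2 measured 41.4 and 50.5 CPM in oxLDL-treated mutant cells, against 105 and 144 CPM in untreated mutant cells, and 57.5 CPM in oxLDL-treated wild-type cells, against 117 CPM in untreated wild-type cells, likewise without overlap. Of 16 regulators of mitochondrial transcription and biogenesis 2 fell (12.5% called), Esrra, an estrogen-related receptor, with -0.52 ± 0.13 (adjusted p = 0.0276), and Gabpb1, the partner of GABPA, with -0.48 ± 0.12 (adjusted p = 0.0237). Both are regulators of respiratory genes, and the lists of subunits and regulators were not tested against each other. Of 8 genes of mitophagy, the removal of damaged mitochondria, 4 rose and none fell (50% called, against 35.6% of all genes), among them Sqstm1 by 1.98 ± 0.16 (adjusted p = 0.000780), Pink1 by 1.22 ± 0.16 (adjusted p = 0.00302) and Optn by 0.90 ± 0.13 (adjusted p = 0.00441). Pink1, the kinase that marks damaged mitochondria, measured 45.7 and 54.4 CPM in oxLDL-treated mutant cells, against 24.1 and 19.03 CPM in untreated mutant cells, and 45.8 CPM in oxLDL-treated wild-type cells, against 31.1 CPM in untreated wild-type cells. Between genotypes across treatments 1 gene of these lists passed, Idh2, the NADP-dependent mitochondrial isocitrate dehydrogenase, at 66.5 and 58.1 CPM in oxLDL-treated mutant cells, against 52.7 and 51.1 CPM in untreated mutant cells, and 35.9 CPM in oxLDL-treated wild-type cells, against 34.4 CPM in untreated wild-type cells, a log2 fold change of 0.69 ± 0.11 (adjusted p = 0.0328).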

How the data were processed

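Deposited for each gene were the authors' RSEM expected counts, not all whole numbers since a read matching several genes is divided among them, and a normalised signal per gene in CPM with TMM scaling (trimmed mean of M-values). Per the submitters' processing notes, Bowtie2 2.1.0, RSEM 1.2.15 and edgeR were used. The build they list is human (hg19), although the tables carry mouse gene symbols, so of the build used for counting it can only be said: not given in the sources used here. The deposited signal steps in whole reads for 100% of values, and the reads so recovered match the rounded expected counts in 99.89% of genes or more, library by library.

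Expected counts were rounded to whole numbers, and of 17143 genes with a count 12689 passed edgeR's filterByExpr, all 85 oxidative phosphorylation genes among them. Genes were tested by quasi-likelihood in edgeR 4.0.16 (R 4.3.3). Normalisation was by TMM, with factors of 0.928 to 1.04, and p-values were adjusted by Benjamini-Hochberg over all genes tested. Comparisons within 1 genotype or treatment, and the interaction, came from 4 group means; those across genotypes or treatments came from a fit with both as terms. These fits take the spread of the mutant pairs as that of the single wild-type libraries. Genes were called at an adjusted p under 0.05. SE is the size of the log2 fold change divided by the square root of F. CPM here use the TMM-adjusted library size. Within wild type, genes at 5 CPM or more were called by size at 2-fold, with a prior count of 2. Fits were tested on simulated counts with known changes.

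Shared 75-base stretches and overlaps were computed from GENCODE M21 transcripts, and no share is known for genes outside it. The members and gene lists were chosen with earlier results of these data known. Genes given in full were the core subunits, isoform pairs, the up to 3 largest changes in each direction per complex for oxLDL in the mutant, genes called between genotypes, and up to 3 called genes per direction of each other list. One gene that this rule takes in is not reported here. Alternatives were other size factors, no scaling, no low-count filter, DESeq2 1.42.0, a replicate block, leaving out each library in turn and leaving out pancreatic markers with Rn45s.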

Additional observations from a re-analysis of the deposited data

How the results depend on the processing

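For oxLDL in mutant cells, against 8 genes, DESeq2's Wald test called 5 (29.2% of all genes passing), and leaving out 1 library gave 3 to 7. For oxLDL across genotypes leaving out 1 library gave 5 to 8 against 11, and 3480 to 4529 against 5134 over all genes. For genotype, DESeq2 called 1 gene against 2 both in untreated and in oxLDL-treated cells, BC002163 each time. Leaving out certain single libraries ended the call for Ndufs5 in each genotype comparison, and that for BC002163 in oxLDL-treated cells. The number called over all genes also changed with the library left out. The interaction had 1 gene without the low-count filter, Cox6a2, against 0, and 546 against 62 over all genes. The sum of Ndufs5 and BC002163 for oxLDL in mutant cells, -0.03, changed sign without mutant oxLDL replicate 2 (0.027) and without mutant untreated replicate 2 (0.036), and ranged from -0.089 to 0.036 with 1 library left out, never passing. The cause was not tested. Without scaling beyond the library total the median log2 fold change of all genes between genotypes in untreated cells was 0.13 instead of -0.01. Over all genes, 514 were called for genotype across treatments, against 1500 by DESeq2 and 1387 without the low-count filter, and 8 without mutant untreated replicate 2. For oxLDL in the mutant, 4515 were called, against 2626 without that library.

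The mutant libraries share the numbers 1 and 2 in their titles, and the deviations of same-numbered libraries correlated at 0.204 over all genes and 0.435 over the 85. With 2 pairs and no statement of what a number marks, these values cannot show whether the libraries were paired. With the number as a replicate block 9 genes were called for oxLDL in the mutant, with Atp5o added (adjusted p = 0.0497), 8 across genotypes and 0 for the interaction, and the sum of Ndufs5 and BC002163 was -0.03. Over all genes the block gave 5089 calls for oxLDL in the mutant, against 4515 without it. The counts were 4765 against 5134 across genotypes and 162 against 62 for the interaction. No paired analysis was possible for genotype because each replicate block lies within 1 genotype. Low counts limit Ndufs5, with 11 and 0 in the mutant oxLDL libraries and 5 and 3 in the mutant untreated ones. Ndufs5 and BC002163 together held 651 and 494 counts in those oxLDL libraries and 282 and 383 in those untreated ones. Cox6a2 was also limited, with 8 and 6 counts in the mutant untreated libraries.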
